A study of Mus musculus with 11 samples.

Results

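The C/EBP family was followed through haematopoietic stem cells (HSCs) of newborn mouse liver. The family was represented by Cebpa, Cebpb, Cebpd, Cebpe and Cebpg, matched by symbol. All 5 genes were present among the 24064 genes of the libraries sorted by light scatter and among the 23420 gene symbols of the unsorted set. Where a gene had several transcripts, the one most abundant on average across the 7 scatter-sorted libraries stood for it. The family was chosen by the level of Cebpb, whose RPKM values were already known to be lower in one scatter gate. Its values in that comparison are therefore a description without a test.

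C/EBP proteins are transcription factors with a basic DNA-binding region and a leucine zipper, through which they pair with each other and with related zipper proteins. C/EBPα is known for committing blood progenitors to the granulocyte and monocyte lineages and for restraining the cycling of stem cells. C/EBPβ drives granulocyte production in infection and cytokine stress, C/EBPδ takes part in the acute inflammatory response, and C/EBPε is needed for late granulocyte maturation. C/EBPγ lacks a classical activation domain and acts mainly as a pairing partner of other zipper proteins.

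The 11 libraries share their source, neonatal liver of wild-type C57BL/6 animals on postnatal day 0, and the labels name no mutant allele or treatment. HSCs were sorted as lineage-negative, Sca1-positive, cKit-positive, CD150-positive and CD48-negative cells, and 100 to 200 of them were the input of each Smart-seq2 library, a method that copies whole transcripts from few cells. The groups were FSC-A High (4 libraries), FSC-A Low (3 libraries) and WT HSC (4 libraries, with no scatter gate named). Forward scatter area (FSC-A) is a cytometry reading commonly taken as a measure of cell size. The labels do not say whether replicates were separate animals or pools, so p-values measure the spread between these libraries, which may be technical.

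The gated libraries corresponded to an estimated 65.7 M to 98.2 M reads and are given in RPKM, reads scaled to transcript length and library depth. The WT HSC libraries held 21.3 M to 30.9 M recovered reads and are given here in CPM, reads scaled to library depth alone. The units come from separate processing, so no level was compared across them. Only the order of members within each unit was set side by side. Genes of the positive sort markers were detected in every gated library. In FSC-A High and FSC-A Low, Kit stood at 17.9 to 25.2 and 48.8 to 61.2 RPKM, Ly6a (Sca1) at 12.9 to 43.6 and 11.2 to 14.4 RPKM and Slamf1 (CD150) at 2.83 to 8.73 and 5.97 to 10.4 RPKM. Cd48, the gene of the negative sort marker, stood at 0.0822 to 3.32 and 0.946 to 1.75 RPKM. Its RNA was thus also detected in every gated library, and its range in FSC-A High overlapped that of Slamf1.

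Each gene's position is that of the RefSeq gene span on GRCm38, the assembly that mm10 denotes. Cebpa (chromosome 7, 35119293 to 35121928), Cebpb (chromosome 2, 167688915 to 167690432) and Cebpd (chromosome 16, 15887286 to 15889545) consist of 1 exon each in the GENCODE transcript matched to their RefSeq identifier. Cebpe (chromosome 14, 54710363 to 54712174) and Cebpg (chromosome 7, 35046422 to 35056566) have 2 exons. Cebpg and Cebpa point away from each other on chromosome 7, with 62726 bases between their starts. The GC content of the transcript was 67.2% for Cebpb, 62.6% for Cebpa, 61.5% for Cebpe, 51.6% for Cebpd and 43.3% for Cebpg. The 3 RefSeq entries of Cebpb held identical values in every library. C/EBPβ is known to be made as several isoforms from 1 mRNA, which these values cannot tell apart.

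RefSeq's promoter table for GRCm38.p6 matched 3 of the 5 genes, Cebpa, Cebpb and Cebpg. The 250 bases before the annotated start are shown for Cebpb, whose level separated the scatter gates, and for Cebpg, whose level did not. Capitals mark TGACG, the half-site of the cAMP response element, in Cebpb and CCAAT, the CCAAT box, in Cebpg. Either strand was searched, so the motif may be printed as its reverse complement.

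Cebpb upstream window, plus strand of chr2:167688665-167688914: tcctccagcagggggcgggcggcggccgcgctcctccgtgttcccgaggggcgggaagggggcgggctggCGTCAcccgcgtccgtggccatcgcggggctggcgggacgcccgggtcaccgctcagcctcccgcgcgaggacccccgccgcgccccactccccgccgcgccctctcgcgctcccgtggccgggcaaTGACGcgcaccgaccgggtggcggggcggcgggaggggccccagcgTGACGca

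Cebpg upstream window, minus strand of chr7:35056567-35056816: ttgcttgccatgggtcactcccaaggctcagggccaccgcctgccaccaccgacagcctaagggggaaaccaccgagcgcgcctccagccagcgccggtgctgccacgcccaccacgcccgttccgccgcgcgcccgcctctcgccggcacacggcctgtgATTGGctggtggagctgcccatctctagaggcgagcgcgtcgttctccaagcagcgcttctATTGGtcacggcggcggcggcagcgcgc

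The Cebpb window held 3 matches to TGACG, beginning 180, 53 and 7 bases before the start, a motif present in 17.8% of the 32851 promoter windows searched. The Cebpa and Cebpg windows held none. The Cebpb window also held 5 matches to GGGCGG, the GC box, which 32.7% of windows contain. The matches beginning 238 and 234 bases before the start overlap. The Cebpg window held 2 matches to CCAAT (33.8% of windows), and the Cebpa window held 1 match to TATAAA (12.4% of windows). TTNNGNAA, a C/EBP consensus (36.8% of windows), TTCNNNGAA, a STAT consensus (7.02%), GCGNGGGCG, an Egr consensus (4.70%), and the full element TGACGTCA (1.55%) had no match in any of the 3 windows. The Cebpb window had a GC content of 81.6%, above that of 99.3% of the windows, and the Cebpg window one of 70.8%. No other matches in these windows overlap, and a match is a description of letters only.

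Cebpb was the most abundant C/EBP transcript in every gated library and stood far lower in FSC-A High than in FSC-A Low. Its level in FSC-A High was 31.9, 9.40, 16.5 and 9.99 RPKM in replicates 1 to 4. In FSC-A Low it was 141, 158 and 80.9 RPKM in replicates 1 to 3. The highest FSC-A High library lay below the lowest FSC-A Low library, so the groups did not overlap. The mean was 16.9 ± 10.5 RPKM (SD, n = 4) in the High gate. It was 126 ± 40.3 RPKM (SD, n = 3) in the Low gate, a 7.46-fold ratio of Low to High. On the log2(RPKM + 1) scale, which understates changes of low genes, the difference of High minus Low was -2.94 (SE 0.36). Of 10619 genes tested, 10617 had a higher (less negative or positive) difference. Across those genes, limma called 27.3% (Benjamini-Hochberg adjustment, threshold 0.05), with 11.7% lower and 15.6% higher in FSC-A High, and the libraries of the groups did not overlap in 34.9%. Fewer cells with Cebpb RNA and less Cebpb RNA per cell cannot be told apart in these bulk libraries.

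Cebpd, the acute-phase member, had lower values in most FSC-A High libraries, without passing the test. It stood at 15.3, 5.89, 5.97 and 3.03 RPKM in FSC-A High replicates 1 to 4 and at 9.29, 18.7 and 12.5 RPKM in FSC-A Low replicates 1 to 3. The groups overlapped through FSC-A High replicate 1, which exceeded FSC-A Low replicates 1 and 3. The log2 difference was -0.90 (SE 0.42, 95% interval -1.80 to 0.01, limma adjusted p = 0.131). Without FSC-A High replicate 1, the same library in which Cebpb was highest within its group, the difference was -1.27 (limma adjusted p = 0.0198). Among all other settings and left-out libraries tried, Cebpd passed only there, and its limma adjusted p ranged from 0.0198 to 0.347.

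Cebpg, the pairing partner, did not separate the gates. It stood at 2.04, 3.22, 4.14 and 3.43 RPKM in FSC-A High and at 2.58, 3.49 and 8.14 RPKM in FSC-A Low. FSC-A Low replicate 3 alone lay above the FSC-A High range. The log2 difference was -0.35 (SE 0.37, 95% interval -1.16 to 0.46, limma adjusted p = 0.526), and it was 0.05 without that library. The interval includes changes of more than 2-fold downward, so the data do not show that Cebpg was equal in both gates.

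**Figure D1:**
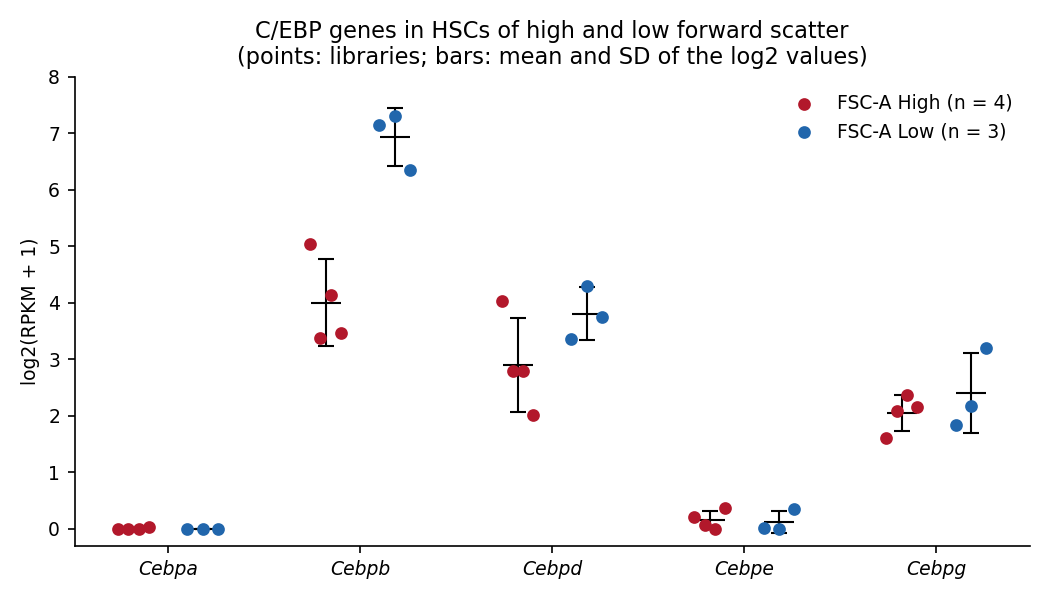
Level of each C/EBP gene in the gated libraries, as log2(RPKM + 1). Points are libraries (FSC-A High, n = 4; FSC-A Low, n = 3) and bars give mean and SD of the log2 values. The groups do not overlap for Cebpb (9.40 to 31.9 against 80.9 to 158 RPKM) and overlap for the other 4 genes.

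Cebpa and Cebpe, the granulocyte lineage members, were close to undetected and stayed out of the test, which required at least 1 RPKM in at least 3 libraries. Cebpa was listed at 0 in 6 of the 7 gated libraries and at 0.0178 RPKM in FSC-A High replicate 4, about 4 reads. A count of 0 allows a Cebpa level of up to 0.0116 to 0.0174 RPKM, the value of 3 reads, depending on the library. Cebpe reached 0.160, 0.0499, 0 and 0.284 RPKM in FSC-A High and 0.0112, 0 and 0.268 RPKM in FSC-A Low, at most about 30 reads. Its zeros allow up to 0.0338 RPKM in FSC-A High replicate 3 and 0.0246 RPKM in FSC-A Low replicate 2. These floors cover counting error only and rest on the estimated depth. A difference between the gates was not detectable at these levels for either gene.

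The order of the members by mean RPKM over the 7 libraries was Cebpb (63.8), Cebpd (10.1), Cebpg (3.86), Cebpe (0.110) and Cebpa (0.00254). Cebpb exceeded Cebpd in each of the 7 libraries, by 1.60-fold to 3.30-fold in FSC-A High and by 6.48-fold to 15.1-fold in FSC-A Low. Cebpd exceeded Cebpg in 6 libraries and lay below it in FSC-A High replicate 4 (ratio 0.882). Within FSC-A High, Cebpd (7.56 ± 5.37 RPKM) and Cebpg (3.21 ± 0.869 RPKM) did not differ beyond the spread of Cebpd. Cebpb ranked above 93.9% of all genes by this mean, Cebpd above 77.9% and Cebpg above 68.2%.

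The make-up of the family pool differed between the gates along with Cebpb. The summed RPKM of the 5 genes was 49.4, 18.6, 26.6 and 16.8 in FSC-A High and 153, 179.8 and 102 in FSC-A Low. Cebpb supplied 64.5%, 50.6%, 62.0% and 59.7% of that sum in FSC-A High and 92.2%, 87.7% and 79.5% in FSC-A Low. Cebpd supplied 18.1% to 31.7% in FSC-A High and 6.09% to 12.3% in FSC-A Low. Cebpg supplied 4.14% to 20.5% and 1.69% to 7.99%. Without Cebpb, the High libraries summed to 10.9 ± 4.65 RPKM (SD, n = 4) and the Low libraries to 18.3 ± 5.61 RPKM (SD, n = 3), with overlapping ranges of 6.76 to 17.5 and 11.9 to 22.2. As the shares contain Cebpb, they are a description and were not tested. They take 1 RefSeq entry per gene, while Cebpb had 3 entries and Cebpa 5, each set with identical values. Whether reads were divided among such entries is not given in the sources used here. The levels and shares of Cebpb and Cebpa may therefore be understated.

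**Figure D2:**
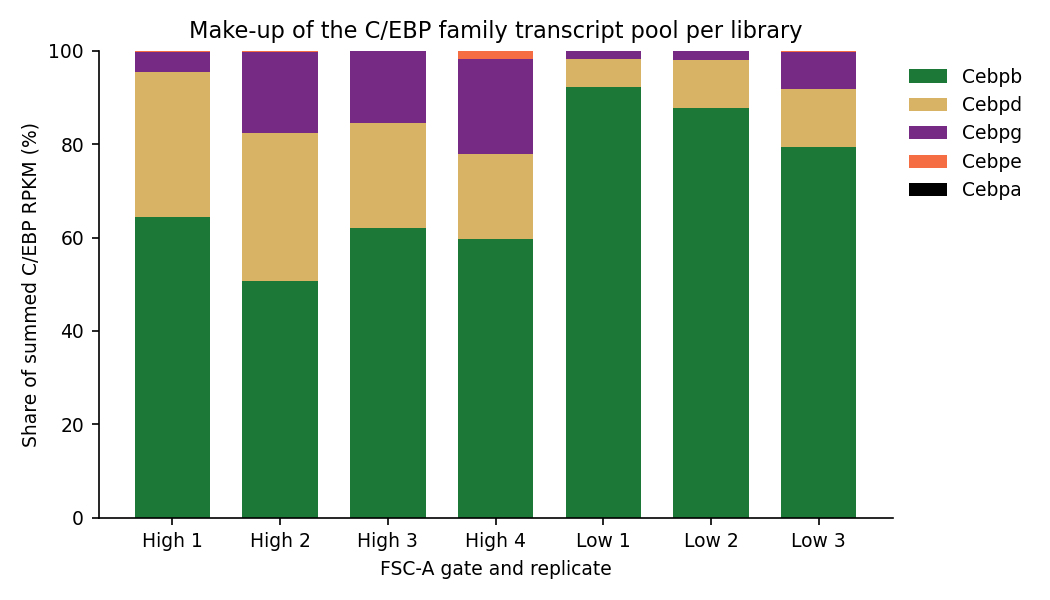
Share of the summed C/EBP RPKM held by each gene, one bar per gated library from 0 to 100%. Cebpb holds 50.6% to 64.5% in the 4 FSC-A High libraries and 79.5% to 92.2% in the 3 FSC-A Low libraries.

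In the WT HSC libraries, Cebpb and Cebpg were the leading members. Cebpb stood at 18.5, 24.8, 15.0 and 103 CPM in replicates 1 to 4, from 572, 529, 408 and 3078 reads. Replicate 4 stood apart: the mean was 40.3 ± 41.9 CPM (SD, n = 4) with it and 19.4 ± 4.98 CPM (SD, n = 3) without it. Cebpg stood at 53.5, 52.2, 81.2 and 43.3 CPM, with a mean of 57.6 ± 16.4 CPM. Cebpd was the steadiest of the detected members, at 8.87, 7.27, 6.76 and 6.11 CPM. Cebpa was read 24 and 10 times in replicates 1 and 2 (0.777 and 0.469 CPM) and not at all in replicates 3 and 4, where 0 allows up to 0.110 and 0.10 CPM. Cebpe was read 3, 4, 0 and 54 times, or 0.0971, 0.188, 0 and 1.80 CPM, and the 0 allows up to 0.110 CPM.

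Divided by the length of the matched GENCODE transcript, Cebpb stood at 12.3, 16.5, 9.97 and 68.3 CPM per kilobase and Cebpg at 11.4, 11.1, 17.2 and 9.20 CPM per kilobase. In replicates 1 to 3 these neighbouring levels overlapped, and only in replicate 4 did Cebpb lie far above Cebpg. Cebpd followed at 1.63 to 2.37 CPM per kilobase with a transcript of 3746 nt, or 2.70 to 3.92 with the RefSeq span of 2260 nt, below both under either length. Cebpg thus lay above Cebpd per length in all 4 WT HSC libraries, and below it in 6 of the 7 gated libraries in RPKM. The lengths and counting behind the RPKM values are not given in the sources used here, so whether the gates or the processing account for this order was not tested.

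**Figure D3:**
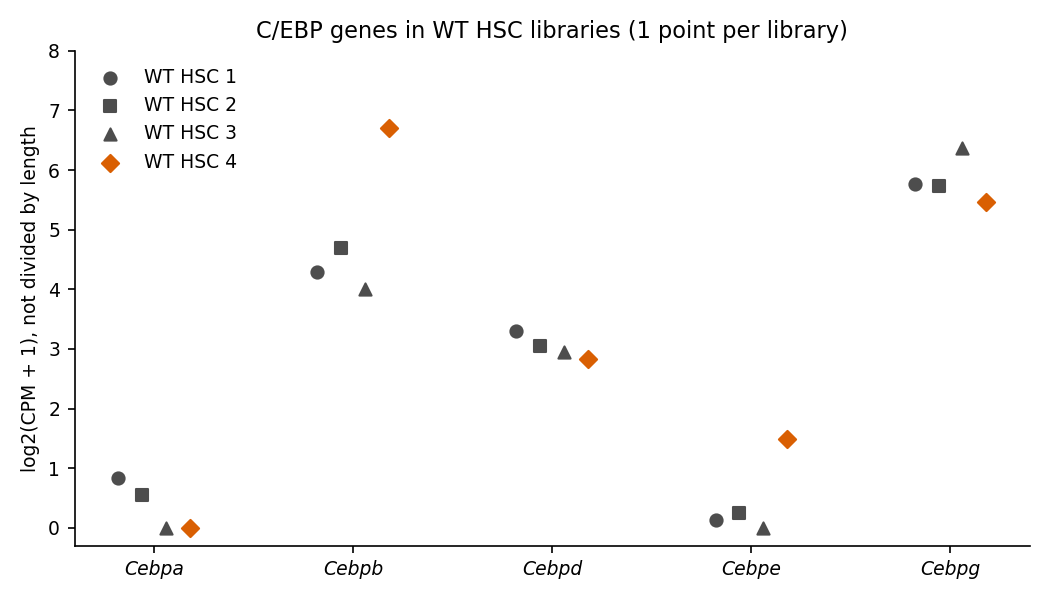
Level of each C/EBP gene in the 4 WT HSC libraries as log2(CPM + 1), not divided by transcript length. Replicate 4 (orange diamonds) stands at 103 CPM for Cebpb against 15.0 to 24.8 CPM in the others, and at 1.80 CPM for Cebpe against at most 0.188 CPM.

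WT HSC replicate 4 differed from the others beyond the C/EBP genes. Rn45s, the ribosomal RNA precursor, took 15.2% of its reads against 3.06% to 5.26% in replicates 1 to 3, and 11384 genes had a read against 12909 to 13368. Of 7 other genes looked at there, all named after their values were seen, 6 were at their highest in replicate 4. Egr1 stood at 227 CPM against 22.1 to 75.0 CPM, Junb at 103 against 17.5 to 35.2 CPM and Socs3, a feedback inhibitor of cytokine signalling, at 37.1 against 0.110 to 5.58 CPM. Nfkbiz stood at 49.3 against 11.1 to 12.1 CPM and Jun at 32.3 against 4.51 to 13.8 CPM. Fos stood at 72.3 CPM, nearer to the 53.4 CPM of replicate 2, and Ddit3 was lowest in replicate 4, at 7.75 against 18.5 to 66.0 CPM. Their part in the Cebpb value of this library was not tested.

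The other genes of the C/EBP network are given by lists, with each gene tested by limma among all 10619 genes. Beside each list's median log2 difference stands the median over all tested genes, -0.04. Scaling each library to its total of gene values moved that median to -0.31, and other scalings to between -0.03 and -0.01. The share of all tested genes called lower was 11.7% and the share called higher 15.6%, against which each list's counts are to be read. Of 20 relatives and zipper partners of the C/EBP proteins, 15 were tested, 6 fell in FSC-A High, 1 rose and 8 did not pass, with a median of -0.70. The 7 called genes stand beside 27.3% called among all genes. Nfil3, a zipper repressor, fell from 10.5 to 26.1 RPKM in FSC-A Low to 2.54 to 9.61 RPKM in FSC-A High (log2 difference -1.92, SE 0.41, limma adjusted p = 0.00447). The AP-1 subunit genes Junb (-1.38) and Jund (-1.53) fell as well, Junb from 67.8 to 83.2 RPKM in FSC-A Low to 23.6 to 35.2 RPKM in FSC-A High. Batf, another zipper factor, rose (0.95, limma adjusted p = 0.00143) but did not pass once the trend over transcript length and GC content was taken out (0.47, limma adjusted p = 0.128). Ddit3, which encodes the family relative CHOP, stood at 4.74 to 12.1 RPKM in FSC-A High and 7.45 to 13.7 RPKM in FSC-A Low and did not pass (-0.25, limma adjusted p = 0.628); it and Atf4 were named after their values were seen. Atf4, a zipper factor known to pair with C/EBPγ, stood at 19.0 to 24.9 RPKM in FSC-A High and 12.8 to 16.8 RPKM in FSC-A Low (limma adjusted p = 0.0903).

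Of 31 genes that act on C/EBP genes or proteins, 26 were tested, 7 fell, 2 rose and 17 did not pass, with a median of -0.50. The 9 called genes stand beside 27.3% called among all genes. Rps6ka1, a kinase of the RSK family that phosphorylates C/EBPβ, stood at 54.8 to 60.8 RPKM in FSC-A High and 128 to 138 RPKM in FSC-A Low (-1.20, SE 0.14, limma adjusted p = 7.40e-05). Stat3 (-0.80), a transducer of interleukin-6 and G-CSF signals, fell too and was named after its values were seen. Myb, a transcription factor of progenitors, fell (-1.16). Spi1, which encodes PU.1, a myeloid partner factor, was high in both gates at 232 to 299 and 229 to 249.6 RPKM (0.11, limma adjusted p = 0.580). Spi1 was named after its values were seen.

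Genes known as C/EBP targets in differentiated myeloid cells spanned undetected to abundant. Of 27 granulocyte and monocyte genes, 4 were listed at 0 in all 7 gated libraries and 15, those 4 included, stayed below 1 RPKM in all of them, among them the granule protein genes Camp, Ngp and Lcn2. Of 9 tested genes that reached 1 RPKM in both gates, 1 was called higher in FSC-A High and 8 were not called in either direction, with a median of -0.63. The called gene was Lyz2, lysozyme, at 232 ± 40.5 RPKM (SD, n = 4) against 163 ± 0.614 RPKM (SD, n = 3) (0.49, limma adjusted p = 0.0304). In the fit without the length and GC trend its difference was 0.03 (limma adjusted p = 0.928). Cd14 passed the filter only through FSC-A High and is left out of these counts. Csf3r, the G-CSF receptor gene and a classical C/EBPα target, stood at 3.25 to 5.85 RPKM against 5.11 to 12.5 RPKM (-0.98, limma adjusted p = 0.0518). It was named after its values were seen.

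Of 24 inflammatory genes tied to C/EBPβ and C/EBPδ, 11 were tested and none passed in either direction by limma, while 2 had an unadjusted p below 0.05; the median was -0.34. Il6, Il1b, Ptgs2 and Saa3 stayed below 1 RPKM in all 7 libraries. The most abundant members were Nfkbia, the inhibitor of NF-κB, at 92.0 to 149.6 RPKM in FSC-A High against 79.0 to 95.3 RPKM in FSC-A Low (0.46, limma adjusted p = 0.0729), and the phosphatase gene Dusp1 at 58.7 to 71.7 against 64.2 to 87.4 RPKM (-0.20, adjusted p = 0.413). Nfkbia passed without FSC-A High replicate 4 (0.59, limma adjusted p = 0.0212, range over all alternatives 0.0212 to 0.704), and Dusp1 passed with each library scaled to its total (-0.50, adjusted p = 0.0323, range 0.0323 to 0.828).

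Of 15 genes tied to growth control by C/EBPα, 13 were tested and reached 1 RPKM in both gates; 5 fell, 2 rose and 6 did not pass, with a median of -0.83. Rb1 passed the filter on low values only through FSC-A Low and is left out of these counts. Mycn, a Myc family gene of stem cells, stood at 84.5 to 106 RPKM in FSC-A High and 149 to 209.9 RPKM in FSC-A Low (-0.91, limma adjusted p = 9.86e-04), and Sox4 at 8.43 to 19.0 against 24.0 to 47.7 RPKM (-1.45, adjusted p = 0.00342). Egr1, an immediate early factor, had a difference of -2.90 (SE 0.22), close in size to that of Cebpb, at 8.40 to 12.3 against 61.7 to 97.4 RPKM. Cdk4, the G1 kinase that C/EBPα binds, rose (0.90, limma adjusted p = 2.48e-04), and Cdkn1a, which encodes p21, rose from 2.80 ± 2.09 RPKM (SD, n = 3) to 9.13 ± 0.781 RPKM (SD, n = 4) (limma adjusted p = 0.00609); Cdkn1a was named after its values were seen.

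**Figure D4:**
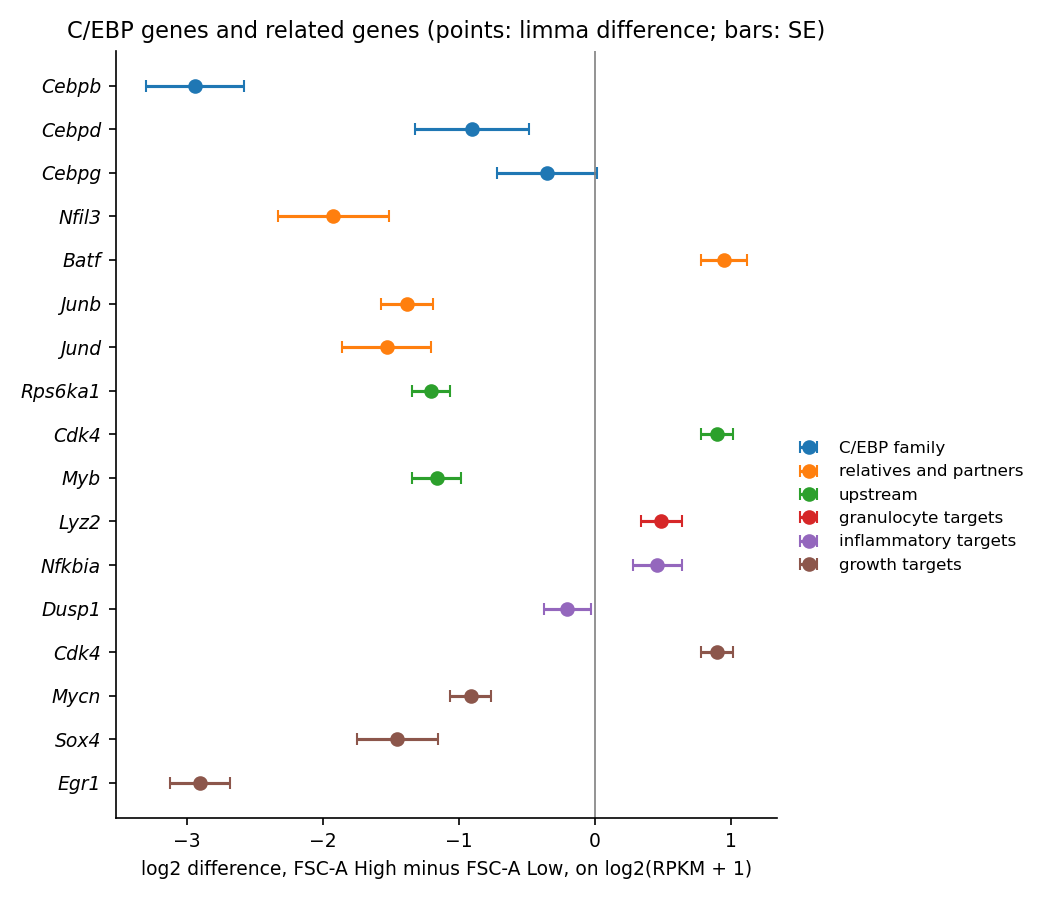
Log2 difference of FSC-A High minus FSC-A Low on log2(RPKM + 1) for the 3 C/EBP genes above the filter and most of the named genes of 5 lists (points: limma estimate; bars: SE). Cdk4 belongs to 2 lists and is drawn under each. Cebpb (-2.94) and Egr1 (-2.90) have the largest differences of the genes drawn.

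The genes whose pattern over the 7 gated libraries was most like that of Cebpb were St3gal5, a ganglioside synthase (Pearson r 0.993, Spearman's rho 1.00), Ndel1 (r 0.989), Ptpre, a receptor-type phosphatase (r 0.986), Ubqln1 (r 0.983) and Acot2 (r 0.982). They were ranked among 4069 genes with a mean log2 value of at least 4. St3gal5 averaged 10.4 ± 2.79 RPKM (SD, n = 4) in the High gate and 27.6 ± 1.86 RPKM (SD, n = 3) in the Low gate. The libraries differ by gate, so genes that separate the gates rank high in such a search. For Cebpd the closest were Abhd16a (r 0.965), Pgp (r 0.954), Poldip2 (r 0.949), Hps1 (r 0.948) and Rprd1b (r 0.946). For Cebpg they were Dusp1 (r 0.843), B3galnt2 (r 0.838), Zfp639 (r 0.830) and Particl (r 0.824), and the lowest correlation among the closest genes fell to 0.39 without FSC-A Low replicate 3. The 3 lists share no gene.

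Markers of other liver and blood cells are given beside the Cebpb difference, since hepatocytes and granulocytes express C/EBP genes. Alb, the hepatocyte albumin gene, reached at most 1.10 RPKM in FSC-A High and 1.56 RPKM in FSC-A Low, and the sum of 12 hepatocyte genes was 62.4 to 78.1 against 58.0 to 81.6 RPKM, mostly Trf. Of 11 neutrophil markers, 7 stayed below 1 RPKM in all 7 libraries, and the sum was 103 to 148 against 100.0 to 103 RPKM, mostly Prtn3. Of 12 macrophage genes, 7 stayed below 1 RPKM, and the sum was 14.8 to 33.5 against 10.3 to 19.4 RPKM. Erythroid sums were 286 to 655 against 294 to 349.7 RPKM, led by Car2. Hbb-bt, an adult beta-globin gene named after its values were seen, was the 1 of 3 tested erythroid genes that was called, higher in FSC-A High at 85.0 to 218 against 52.9 to 79.8 RPKM (1.06, limma adjusted p = 0.0102), the direction opposite to Cebpb. Sums of mast cell, basophil and eosinophil genes did not exceed 6.05 RPKM. Sums that moved in the same direction as Cebpb were those of HSC genes (252 to 354 against 484 to 624 RPKM; 7 of 13 tested genes fell), of megakaryocyte genes (176 to 239.6 against 320.3 to 438 RPKM) and of endothelial genes (9.30 to 31.7 against 31.4 to 77.1 RPKM; 2 of 5 tested genes fell). The endothelial sums of the gates overlapped slightly. They included Plvap, at 0 to 2.05 RPKM in FSC-A High and 0 to 41 RPKM in FSC-A Low, which was not called (limma adjusted p = 0.0824). The 2 endothelial genes that fell were Tek (-1.57) and Pecam1 (-1.52). Plvap, Tek and Pecam1 were named after their values were seen. Of the endothelial genes, Cdh5 and Lyve1 stayed below 1 RPKM in all 7 libraries. The part of these differences in that of Cebpb was not tested.

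The Cebpb difference kept its sign and lay between -3.28 and -2.64 under 17 other settings and left-out libraries. It was -2.74 with the trend over transcript length and GC content removed. Over its own alternatives, the Cebpd difference lay between -1.27 and -0.60 and the Cebpg difference between -0.63 and 0.05.

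**Figure D5:**
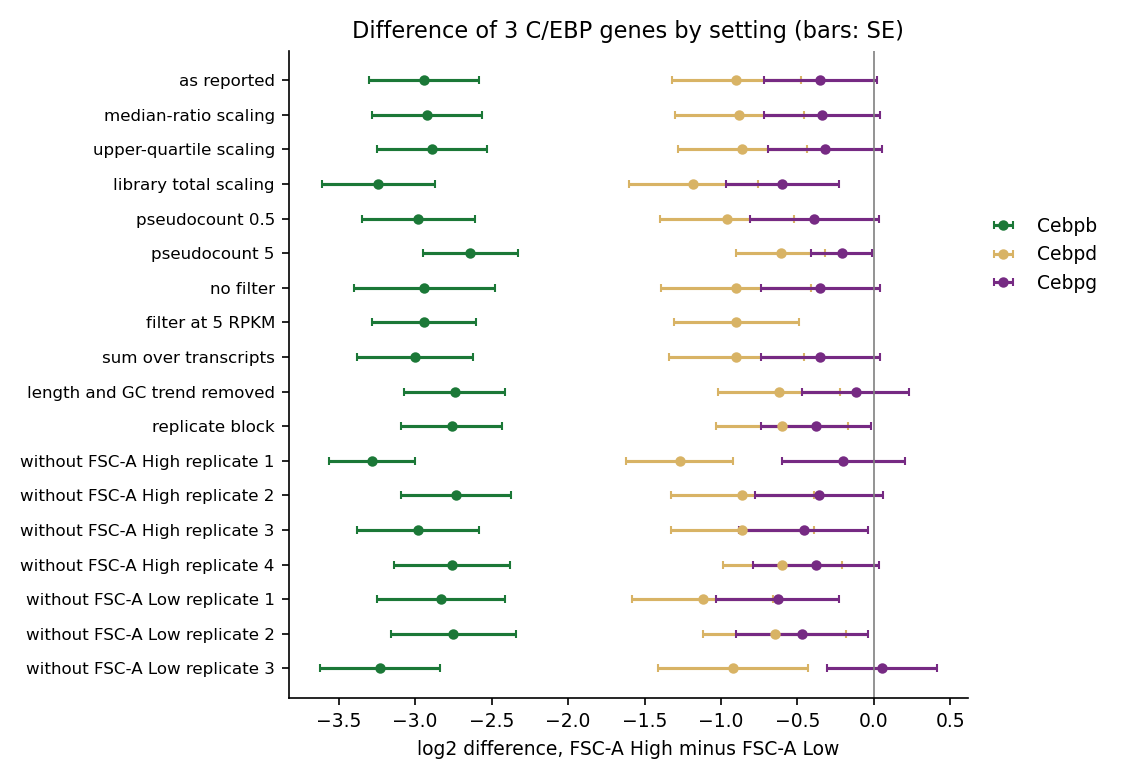
Log2 difference of FSC-A High minus FSC-A Low for Cebpb, Cebpd and Cebpg as reported (top row) and under each other setting or with 1 library left out (bars: SE). Cebpb stays between -3.28 and -2.64, and Cebpg crosses 0 without FSC-A Low replicate 3; Cebpg has no value with a filter at 5 RPKM.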

How the data were processed

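Gated files: the deposited values are 1 per RefSeq transcript (33984), taken as RPKM scaled by the authors. No label or header names the unit; value times transcript length summed to 1.02 to 1.03 times the total that defines RPKM, and FPKM would look the same. WT HSC files: the deposited signal per gene symbol became whole reads within 0.01 for 100% of values once divided by 1 step per library, and these reads were expressed as CPM. Per the submitters' processing notes, STAR, DESeq2 and mm10 were used, without versions or roles. A count test on the recovered reads has no comparison to make in a single group.

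The 24064 genes were matched to RefSeq by identifier (32263 transcripts) or symbol (1328). The gates were compared by limma 3.58.1 (R 4.3.3, trended eBayes) on log2(RPKM + 1) with no covariate, keeping genes that reached 1 RPKM in 3 or more libraries. Lists of C/EBP partners, regulators, targets and cell markers were described by counts and medians; no set test was run. Named genes were the members, up to 4 called genes of each list by adjusted p (the 2 most abundant where none was), the 5 closest patterns per tested member and the most abundant marker; others are marked in the text. Predicted genes were not named, and some genes the rule selects are not reported here. The members and lists were chosen with earlier results of these data known. The fit was also run on simulated data, and the outcome of that run is not given here. Alternatives were scalings, pseudocounts of 0.5 and 5, filters, summed transcripts, a spline (5 degrees of freedom) over length and GC content (lengths for 93.9% of transcripts), the replicate number and left-out libraries. Tables were made with Python 3.11.15 and pandas 2.3.3.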

Additional observations from a re-analysis of the deposited data

Results flagged for a closer look

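Among 45 groups of 4 libraries, 4 held a library far from the other 3, by a gap beyond Dixon's 95% critical value, which chance passes in about 1 in 20 groups of normally distributed values. Cebpb was at 103 CPM in WT HSC replicate 4, with the next library at 24.8 CPM. Cebpe was at 1.80 CPM in the same library, with the next at 0.188 CPM. Cebpa was at 0.0178 RPKM in FSC-A High replicate 4 and listed at 0 in the other 3, so that about 4 reads make up its whole range. Nfil3 was at 9.61 RPKM in FSC-A High replicate 3, with the next library at 3.62 RPKM.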

How the results depend on the processing

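Scaling each library to its total of gene values gave 980 genes higher and 2285 lower in FSC-A High in place of 1657 and 1245, and removing the trend over length and GC content gave 980 higher. Leaving out 1 library gave 1313 to 1639 higher and 868 to 1166 lower genes. Without FSC-A High replicate 1, Cebpd passed at -1.27; leaving out each library in turn gave -1.27 to -0.60. Cebpg turned to 0.05 without FSC-A Low replicate 3; its range over left-out libraries was -0.63 to 0.05. Cebpb ranged from -3.28 to -2.73 in the same way. In WT HSC, leaving out 1 library gave mean CPM of 0.156 to 0.415 for Cebpa, 19.4 to 48.7 for Cebpb, 6.72 to 7.64 for Cebpd, 0.095 to 0.696 for Cebpe and 49.7 to 62.3 for Cebpg. Of 238 alternative differences of 14 named genes, 223 kept their direction and their side of the threshold, 12 lost the call (Lyz2 in 10), 3 gained it (Nfkbia in 2, Dusp1 in 1) and none reversed. Of 180 alternative values of 15 correlations, 6 changed by more than 0.1, each with Cebpg. The cause of these changes was not tested.

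Same-numbered libraries of both gates did not deviate together (r -0.03, 0.06 and 0.00 for numbers 1 to 3). With so few libraries, such low correlations cannot show whether they share an animal or a sort, which the labels do not give. With the replicate number as a block, 1460 genes were higher and 971 lower, and the differences were -2.76 for Cebpb, -0.60 for Cebpd and -0.38 for Cebpg; Nfkbia passed (0.59, limma adjusted p = 0.0323) and Lyz2 did not (0.43, adjusted p = 0.0519). The fit with a block takes no information on the groups from FSC-A High replicate 4. A filter at 5 RPKM left no value for Cebpg. Few reads limit what can be said of Cebpa and Cebpe, which had at most 54 reads in any library. Whether depth or cell input plays a part was not tested.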
